A study of Mus musculus with 12 samples.

Results

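The genes described here are the 3 retinoic acid receptors Rara, Rarb and Rarg, the retinoic acid hydroxylase gene Cyp26a1 and the coregulator gene Trim24. They were chosen by name, with earlier results of these data known. The probe sets that the platform annotation assigns to them were read from the liver expression table: 5 of the 12393 genes of that table, with 7 of its 22690 probe sets. Where a gene had more than 1 probe set, the one with the highest mean over all arrays stood for the gene and the other was kept as a check. The table holds liver RNA of 12 male C57BL/6 mice, each on its own Affymetrix array. Wild type mice fed the normal diet (WT) or a diet with retinoic acid (RA) at 150 mg/kg over 7 days (WT_RA) were set beside mice whose hepatocytes are deficient in the retinoid X receptor α, RXRα, fed the normal diet (KO) or that RA diet (KO_RA), with 3 arrays in every group. The methods give an age of 12 weeks for the wild type mice. In the KO mice, Cre recombinase under the albumin promoter removes a loxP-flanked exon of Rxra for the DNA-binding domain, and a truncated protein with its ligand-binding domain is still made. Deletion is driven in hepatocytes, so other liver cells keep RXRα, and all values below are for whole liver. The sources do not state whether the wild type mice carried the floxed allele.

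Retinoic acid is the active form of vitamin A. Its receptors RARα, RARβ and RARγ bind DNA as heterodimers with an RXR, release corepressors when the ligand binds and then recruit coactivators. The preferred DNA element is a direct repeat of a receptor hexamer, and the classical RA response elements of the Rarb and Cyp26a1 promoters are such repeats with 5 bases between the hexamers. CYP26A1 is a cytochrome P450 that hydroxylates RA and so clears it, and its induction by RA is a feedback loop. TRIM24, also named TIF1α, is a bromodomain protein that binds liganded nuclear receptors, among them RARα, and is known to restrain RARα signalling in mouse liver.

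The promoter letters are shown first because the genes differed in them as well as in their response. RefSeq windows of GRCm38.p6, from 250 bases before to 50 bases after a listed transcription start, were found for all 5 genes, 10 windows in all. The hexamers searched on both strands were AGGTCA, which is the consensus, and also GGGTCA, besides the common form AGTTCA, as well as GGTTCA, taken as single copies and as direct repeats with 1, 2 or 5 bases between them. A single hexamer is part of each repeat found. In 2 windows, those of Cyp26a1 and Rarb, there was a repeat with 5 bases between. The 250 bases before the start of both are printed 5′ to 3′ along the gene, with the repeat in capitals, for Cyp26a1 at chr19:37697558-37697807 (plus strand) and for Rarb at chr14:16575477-16575726 (minus strand):
Cyp26a1: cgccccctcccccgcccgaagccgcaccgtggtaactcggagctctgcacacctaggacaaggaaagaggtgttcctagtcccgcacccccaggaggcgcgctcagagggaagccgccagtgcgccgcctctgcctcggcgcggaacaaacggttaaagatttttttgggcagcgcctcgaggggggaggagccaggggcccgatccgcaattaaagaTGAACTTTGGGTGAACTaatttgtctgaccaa
Rarb: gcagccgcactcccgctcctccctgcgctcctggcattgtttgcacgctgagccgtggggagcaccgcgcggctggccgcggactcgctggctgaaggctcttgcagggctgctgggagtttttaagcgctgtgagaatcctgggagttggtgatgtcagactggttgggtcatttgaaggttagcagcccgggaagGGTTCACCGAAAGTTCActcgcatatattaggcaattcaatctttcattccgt
The Cyp26a1 repeat lay 32 to 16 bases before the listed start, at chr19:37697776-37697792, and read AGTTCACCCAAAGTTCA on the strand opposite to the gene. The annotated boundary of Cyp26a1 lies 70 bases before that start, so the repeat is inside the annotated gene. The Rarb repeat lay 53 to 37 bases before the start, at chr14:16575513-16575529, and read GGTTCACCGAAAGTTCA on the strand of the gene. That start is internal: the Rarb gene spans chr14:16430839-17082331, and the listed start is at base 16575476, 506855 bases inside its upstream boundary. A further single hexamer, GGGTCA, stood 83 to 78 bases before the Rarb start. Repeats with 5 bases between occurred in 32 of 32851 promoter windows, or 0.0974%, and in 31 of 27025 genes.

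The other members had no direct repeat of these hexamers with 1, 2 or 5 bases between in their windows, and other spacings were not searched. Trim24 has 2 listed starts. The window at its outer start (chr6:37870561-37870860) had 0 hexamers, and that at the inner start (chr6:37900237-37900536) had 3 copies of AGGTCA, all on the strand opposite to the gene, which begin 109, 77 and 44 bases before the start. The letters beside each copy are nearly the same, so the copies belong to a repeated stretch in this inner window. Its 250 bases before the start, chr6:37900237-37900486, are printed with the hexamers in capitals, since Trim24 rose under RA without a repeat of the searched form:
Trim24, inner start: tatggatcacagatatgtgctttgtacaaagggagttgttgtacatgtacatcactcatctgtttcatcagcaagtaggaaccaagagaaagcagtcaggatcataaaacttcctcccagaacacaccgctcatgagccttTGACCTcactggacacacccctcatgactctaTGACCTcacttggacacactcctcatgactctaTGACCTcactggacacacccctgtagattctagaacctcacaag
The 4 windows of Rara held 0, 0, 4 and 1 single hexamers, and the 2 windows of Rarg held 1 and 0. At least 1 such hexamer was found in 43.7% of all windows. A match describes the letters only. RXRα and RARα occupancy was not analysed here.

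**Figure D1:**
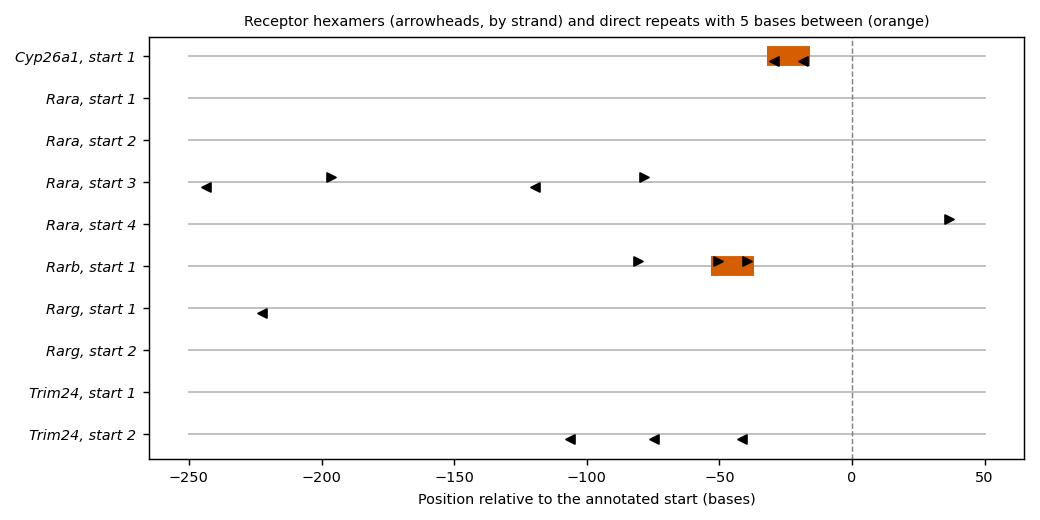
Receptor hexamers in the 10 RefSeq promoter windows of the 5 genes, by base position relative to the listed start (x axis, dashed line at the start), with 1 row per window. Arrowheads mark single hexamers and point right on the strand of the gene and left on the opposite strand, and orange blocks mark direct repeats with 5 bases between, which stand in the windows of Cyp26a1 and Rarb alone.

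Array medians ran from 6.26 to 6.35, with rank correlations of 0.976 to 0.994 within groups. WT_RA 3 and KO 1 stood apart: the Actb 3′ control read 9.40 and 9.12 on them, against 12.1 to 12.9 on the other 10 arrays, and the calls of the 5 genes that rest on them are also given without both. Liver identity was clear from the hepatocyte markers, with Alb at 13.9 to 14.0 in all 4 group means. Rxra, the targeted gene, differed between KO and WT by -0.03 ± 0.18 (SE, n = 3, limma adjusted p = 0.949). Whether its probe sets lie in the deleted exon is not known, so this value is no check of the deletion. The 13 measured Kupffer cell and macrophage markers all had positive changes with RA in wild type mice (median 1.06, 2 called, Cd163 and Cd14) and with RXRα deficiency on the normal diet (median 1.26, 0 called by limma, 13 at an unadjusted p under 0.05). With RA in KO mice 1 of 13 was positive (median -0.53, 0 called by limma, 2 at an unadjusted p under 0.05). Between KO_RA and WT_RA 1 of 13 was positive (median -0.35), with Cd163 called lower at -0.79 (adjusted p = 0.0381). For the difference between the RA effects 0 of 13 were positive (median -1.49, 0 called by limma, 11 at an unadjusted p under 0.05). An unadjusted p under 0.05 was reached by 2017 of 12393 genes for KO against WT. For RA in KO mice 1740 did so, and for the difference 1446. The summed linear signal of the 13 markers was 2041 to 2422 in WT, 3450 to 6440 in WT_RA, 2879 to 12895 in KO and 3364 to 3925 in KO_RA. In whole liver, fewer cells of a type and less RNA per cell cannot be told apart.

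Across the genes, RA raised Cyp26a1, Trim24 and Rarb in wild type liver, and Cyp26a1 and Trim24 in KO liver. Under RA, Cyp26a1 and Trim24 were lower in KO than in wild type liver. Rara and Rarg passed no test in any comparison. Values are log2 units, where a difference of 1 is a doubling, with changes ± SE from a limma fit over all 12 arrays and p-values adjusted over all 12393 genes by Benjamini-Hochberg. The call threshold was an adjusted p of 0.05.

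Cyp26a1, the RA-clearing enzyme gene, had the lowest p of all genes for RA in both genotypes. Its levels were 7.49, 8.36 and 8.11 on the WT arrays and 12.5, 12.6 and 12.4 on the WT_RA arrays. On the KO arrays they were 8.43, 8.43 and 8.69, and on the KO_RA arrays 11.4, 11.3 and 11.2. All 6 RA arrays thus lay above all 6 arrays on the normal diet, and the 3 WT_RA arrays lay above the 3 KO_RA arrays. In wild type mice the probe set moved from brighter than 68.6 to 80.2% of all probe sets to brighter than 99.1 to 99.3%. RA raised Cyp26a1 by 4.51 ± 0.18 in wild type mice, which is 22.8-fold (95% interval 17.4 to 29.9, n = 3 per group, limma adjusted p = 1.19e-07). In KO mice the rise was 2.78 ± 0.18, or 6.87-fold (5.24 to 9.0, limma adjusted p = 3.35e-05). Both calls held in every fit that left out 1 array, with changes of 4.26 to 4.70 and 2.73 to 2.87. Without both arrays that stood apart the changes were 4.58 (adjusted p = 5.74e-06) and 2.74 (adjusted p = 0.00101). The Kupffer cell markers had positive changes together with Cyp26a1 and Trim24 in wild type mice. In KO mice, where both genes also rose, 1 of 13 had a positive change, from a summed signal of 2879 to 12895 on the KO arrays. The part of these cells in the rises was not tested.

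Under RA the genotypes differed in Cyp26a1. KO_RA was lower than WT_RA by a log2 change of -1.20 ± 0.18 (95% interval -1.60 to -0.81, limma adjusted p = 0.00376), with no overlap, and by -1.27 without both arrays that stood apart (adjusted p = 0.0111). In this comparison 12 of 13 Kupffer cell markers had negative changes as well (median -0.35). Of 10 hepatocyte markers 8 had positive changes (median 0.04), and 1, Fabp1, was called lower (-1.56, adjusted p = 0.0368). The part of either cell type in the Cyp26a1 and Trim24 values was not tested. On the normal diet the KO arrays lay just above the WT arrays, without overlap, but the change of 0.53 ± 0.18 was not called (limma adjusted p = 0.18). It was 0.28 without WT 1 and 0.28 to 0.71 over all fits with 1 array fewer. In the order of its levels, WT, KO, KO_RA and WT_RA, WT and KO were thus the neighbours that the test did not separate. The RA effect in KO minus that in wild type mice was -1.73 ± 0.25 (95% interval -2.28 to -1.18), just outside the threshold at a limma adjusted p of 0.0566. This difference was called in 5 of 19 alternatives. Without WT 1 it was -1.48 (adjusted p = 0.0168), without WT 2 -1.92 (adjusted p = 0.0245) and without KO 1 -1.78 (adjusted p = 0.0457), while without both arrays that stood apart it was -1.84 and not called (adjusted p = 0.054). All 13 Kupffer cell markers had negative values for this difference too, with a median of -1.49, and their part in the Cyp26a1 value was not tested. Only Obp2a, an odorant-binding protein gene, was called for this difference among all genes, which is 0.00807%, at -2.39 (adjusted p = 0.00503).

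**Figure D2:**
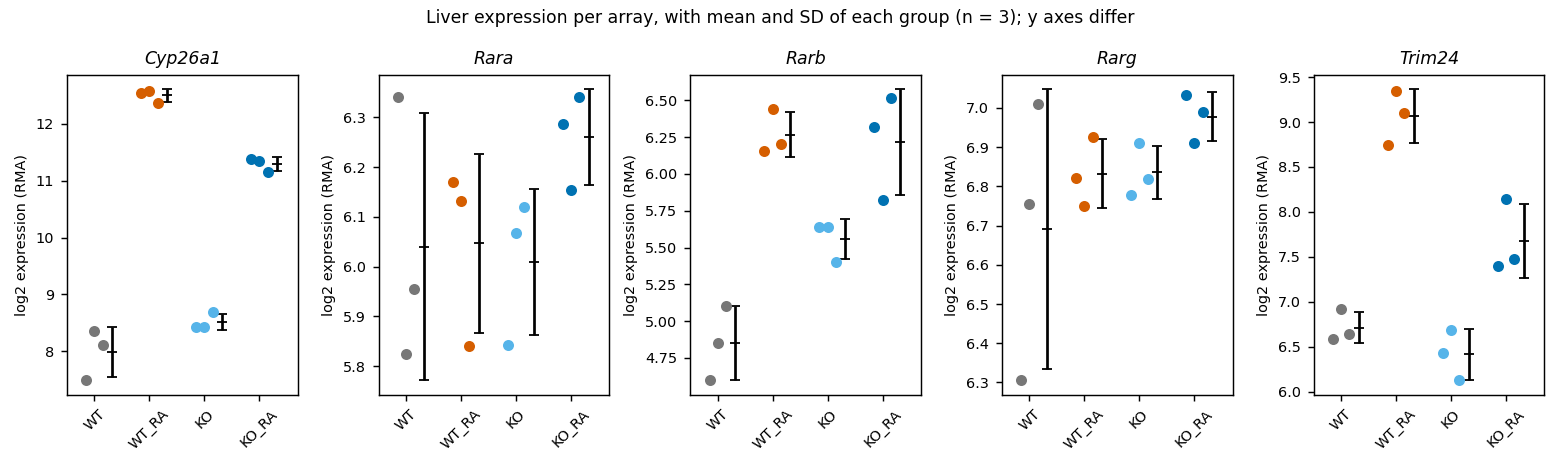
Log2 expression of the 5 genes on each of the 12 arrays (y axis, log2 RMA units, a separate scale per gene) in the 4 groups (x axis), with each group's mean and SD (n = 3) drawn beside the points. Cyp26a1 and Trim24 separate the RA groups from the normal diet groups and WT_RA from KO_RA, Rarb has WT alone at the bottom, and the groups of Rara and Rarg lie close together.

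Among the receptors, Rarb was the one called, and only for RA in wild type mice. Rarb encodes RARβ, the receptor whose own promoter carries the classical response element. Its levels were 4.60, 4.85 and 5.10 in WT and 6.16, 6.44 and 6.20 in WT_RA. They were 5.64, 5.64 and 5.40 in KO and 6.32, 5.82 and 6.52 in KO_RA. The WT arrays were lowest, the KO arrays came next, and the RA groups of both genotypes overlapped. RA raised Rarb by 1.42 ± 0.17 in wild type mice, which is 2.67-fold (95% interval 2.05 to 3.47, limma adjusted p = 0.0026), and the call held in every fit that left out 1 array. Without both arrays that stood apart it was 1.45 (adjusted p = 0.0112). In WT this probe set was brighter than only 20.4 to 27.3% of all probe sets, and the deposited table has no detection calls, so the level there may be near background.

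In KO mice the Rarb arrays of the diets did not overlap, but the change under RA of 0.66 ± 0.17 was not called (95% interval 0.28 to 1.04, limma adjusted p = 0.116). KO minus WT on the normal diet was 0.71 ± 0.17 (0.33 to 1.09, limma adjusted p = 0.0756), again without overlap and not called. That comparison was called in 1 of 19 alternatives, without KO_RA 2, at the same 0.71 (adjusted p = 0.0364). Under RA the genotypes differed by -0.05 ± 0.17 (-0.43 to 0.33, limma adjusted p = 0.92). The RA effect in KO minus that in wild type mice was -0.76 ± 0.25 (-1.30 to -0.22, limma adjusted p = 0.271), so the difference between genotypes was not shown. In the order WT, KO, KO_RA and WT_RA no pair of neighbours passed the test. The Kupffer cell markers, of which 1 of 13 had a WT mean under the lower quartile of the array, moved in the same direction as Rarb in wild type mice under RA and in KO against WT. In KO mice under RA they did not. On KO 1, KO 2 and KO 3 the summed marker signals were 2879, 12895 and 5737, and Rarb read 5.64, 5.64 and 5.40. KO 1 was among the arrays that stood apart, and so few arrays cannot show whether the sums and Rarb go together. The part of the Kupffer cells in the Rarb values was not tested.

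Rara, the RAR of most adult tissues, stayed within 5.82 to 6.34 on all 12 arrays. The WT arrays read 6.34, 5.82 and 5.96, the WT_RA arrays 6.17, 6.13 and 5.84, the KO arrays 5.84, 6.07 and 6.12, and the KO_RA arrays 6.29, 6.15 and 6.34. These groups overlapped, apart from KO_RA, which lay above KO. The RA effect was 0.01 ± 0.14 in wild type mice (95% interval -0.30 to 0.31, limma adjusted p = 0.994). In KO mice it was 0.25 ± 0.14 (-0.05 to 0.55, limma adjusted p = 0.438). The intervals thus reach to a fold of 1.24 in wild type and 1.47 in KO mice, so Rara changes up to that size are not excluded. The intervals are not adjusted for the number of genes, as the calls are. The RXRα deficiency comparisons gave -0.03 on the normal diet and 0.21 under RA, neither called.

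Rarg, which is best known from skin and cartilage, ranged from 6.31 to 7.03. Its levels were 6.31, 6.76 and 7.01 in WT, 6.82, 6.75 and 6.93 in WT_RA, 6.78, 6.91 and 6.82 in KO, and 7.03, 6.91 and 6.99 in KO_RA. The lowest array was WT 1, and the WT spread covered nearly all of the other groups. The 4 comparisons of diets and genotypes all gave changes of 0.14 or 0.15 with an SE of 0.14, and 0 were called by limma or reached an unadjusted p under 0.05. The 95% interval for RA in wild type mice was -0.17 to 0.45. The second Rarg probe set gave changes of 0.02 to 0.27 in those comparisons, none called.

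Trim24, the coregulator, was raised by RA in both genotypes, and its 2 probe sets differed in how far. On its brighter probe set the levels were 6.59, 6.92 and 6.64 in WT and 8.75, 9.35 and 9.10 in WT_RA. They were 6.43, 6.69 and 6.13 in KO and 7.40, 8.14 and 7.48 in KO_RA. The diets did not overlap in either genotype, WT and KO overlapped, and all WT_RA arrays lay above all KO_RA arrays. RA raised Trim24 by 2.35 ± 0.21 in wild type mice, or 5.11-fold (95% interval 3.70 to 7.04, limma adjusted p = 0.000297), and no fit that left out 1 array lost this call. Without both arrays that stood apart it was 2.34 (adjusted p = 0.00314). In KO mice the rise was 1.26 ± 0.21, or 2.40-fold (1.74 to 3.30, limma adjusted p = 0.0278). The KO call was close to the threshold. It was lost without KO 1 (1.27, adjusted p = 0.0518), without KO 3 (1.12, adjusted p = 0.0915), without KO_RA 2 (1.03, adjusted p = 0.0791) and without both arrays that stood apart (1.27, adjusted p = 0.054).

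Between genotypes, Trim24 in KO_RA differed from WT_RA by -1.39 ± 0.21 (95% interval -1.85 to -0.93, limma adjusted p = 0.00433), and by -1.37 without both arrays that stood apart (adjusted p = 0.0194). On the normal diet the difference was -0.30 ± 0.21 (-0.76 to 0.16, limma adjusted p = 0.495), with -0.16 without KO 3, -0.44 without KO 2 and -0.05 on the second probe set. The RA effect in KO minus that in wild type mice was -1.09 ± 0.30 (-1.75 to -0.44, limma adjusted p = 0.231), so this difference was not called. In the order KO, WT, KO_RA and WT_RA, the pair KO and WT did not differ beyond its spread, WT and KO_RA did not overlap but were not tested against each other, and KO_RA and WT_RA passed the test. The second probe set read 5.34, 5.51 and 5.56 in WT, 5.78, 6.30 and 6.42 in WT_RA, 5.59, 5.35 and 5.32 in KO, and 5.63, 5.99 and 5.64 in KO_RA. Its diets did not overlap either, WT_RA and KO_RA did, and its changes were smaller and not called: 0.70 ± 0.16 for RA in wild type mice (limma adjusted p = 0.085 over all probe sets), 0.33 ± 0.16 for RA in KO mice (0.384) and -0.42 ± 0.16 between KO_RA and WT_RA (0.21). The calls for Trim24 thus rest on 1 of its 2 probe sets, and the direction was the same on both in these 3 comparisons. On the normal diet the second one was brighter than only 31.8 to 35.8% of all probe sets. The mean of both gave 1.53 for RA in wild type mice (limma adjusted p = 0.00253). It gave 0.80 for RA in KO mice (0.0659, not called) and -0.90 between KO_RA and WT_RA (0.0156).

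**Figure D3:**
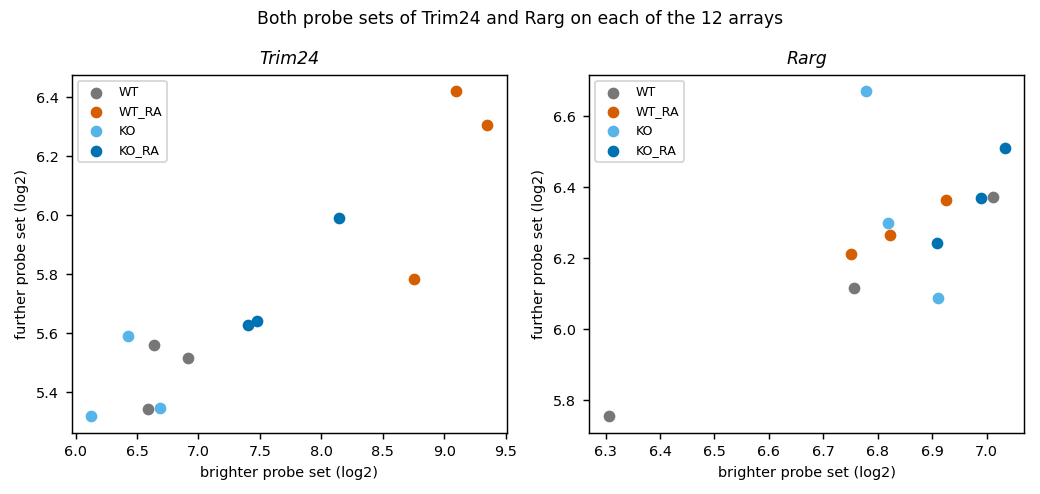
The further probe set (y axis, log2 units) against the brighter one (x axis, log2 units) for Trim24 and Rarg, with 1 point per array coloured by group. For Trim24 the WT_RA arrays lie highest on the brighter probe set, while on the further one, which spans 5.32 to 6.42, KO_RA 2 at 5.99 lies above WT_RA 1 at 5.78. For Rarg the groups are mixed.

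The 5 genes were chosen with earlier results of these data known, so the shares of all genes give scale and are no test of the set. Counted together, 3 of the 5 genes were called higher for RA in wild type mice, where 1.27% of all genes were called in either direction. These 3 genes also had no overlap between arrays of the diets, against 16.6% of all genes. When KO and WT were compared on the normal diet, 0 of 5 were called by limma, against 1.32% of all genes. An unadjusted p under 0.05 was reached by 2 of 5, against 2017 of 12393 genes. Cyp26a1 and Rarb did not overlap there, against 20.1% of all genes. For RA in KO mice 2 of 5 were called higher, against 0.5% of all genes, and 4 did not overlap, against 20.9%. Under RA, 2 of 5 were lower in KO than in wild type mice, against 3.95% of all genes, and the same 2 did not overlap, against 25.6%. For the difference between the RA effects 0 of 5 were called by limma, against 0.00807% of all genes. An unadjusted p under 0.05 was reached there by 3 of 5, against 1446 of 12393 genes. Median changes over all genes ran from -0.03 to 0.02 in the 5 comparisons. The comparisons share groups: WT and KO enter 3 each, as do WT_RA and KO_RA, so their counts are not independent.

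**Figure D4:**
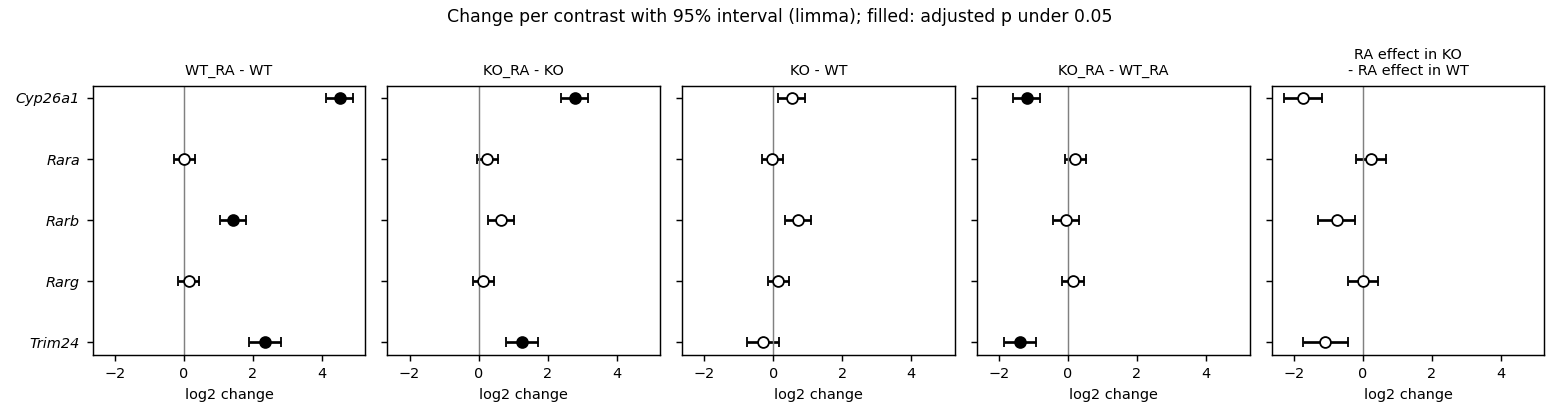
Change of each of the 5 genes in the 5 comparisons (x axis, log2 change), with points for the limma estimate and bars for its 95% interval. Filled points were called: Cyp26a1, Rarb and Trim24 for RA in wild type mice, Cyp26a1 and Trim24 for RA in KO mice, and these same genes, on the negative side, for KO_RA against WT_RA.

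The genes that work with these 5 were read in the same way. Of the RXR partners Rxra, Rxrb and Rxrg, the coregulators that corepress or coactivate the receptors (12 of 15 measured) and the TRIM24 relatives Trim28 and Trim33, 0 were called by limma in any of the 5 comparisons. Of all genes, 0.00807 to 3.95% were called in these comparisons, so 0 calls in lists this small say little. For RA in wild type mice 0, 1 and 0 of them reached an unadjusted p under 0.05, against 1454 of 12393 genes. For RA in KO mice 0, 5 and 0 did, against 1740 of 12393 genes. Coregulators changed by -0.15 to 0.38 under RA in wild type mice, with a median of 0.00, and by -0.32 to 0.48 in KO mice, with a median of 0.07. Trim28 and Trim33 changed by 0.04 and -0.02 under RA in wild type mice. Rxra itself read 0.61 ± 0.18 higher in KO_RA than in WT_RA, not called (limma adjusted p = 0.0911).

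The genes of RA clearance, binding, synthesis and supply besides Cyp26a1 were not called for RA either, which says little for lists this small. Of the RA clearance and binding genes, Crabp1, Crabp2 and Fabp5 were measured, with changes of -0.01 to 0.28 in wild type and -0.06 to 0.32 in KO mice. Crabp1 and Crabp2 had means under the lower quartile of the arrays in every group. The fatty acid binding protein gene Fabp5 had values of 1.34 ± 0.37 for KO against WT (limma adjusted p = 0.112), not called. Of the 10 measured genes of RA synthesis and retinoid supply, 0 were called by limma in any comparison. For RA in each genotype 1 of them, Lrat, reached an unadjusted p under 0.05, against 1454 (wild type) and 1740 (KO) of 12393 genes. Lrat, which esterifies retinol for storage, had changes of 0.33 in wild type mice (adjusted p = 0.121) and 0.39 in KO mice (adjusted p = 0.0823). Its group means of 3.94 to 4.42 lay under the lower quartiles of the arrays (4.87 to 5.02), so its levels may be near background. Among 16 measured genes known as RAR targets, 1 was called for RA in wild type mice: the transglutaminase gene Tgm2, at 1.06 ± 0.21 (limma adjusted p = 0.0296). That call did not hold when WT 1, WT 2, WT 3, WT_RA 2 or WT_RA 3 was absent (highest adjusted p 0.123), nor without both arrays that stood apart (0.87, adjusted p = 0.0525). The median of the 16 was 0.02 in wild type mice and 0.12 in KO mice. In KO mice 0 were called by limma and 4 reached an unadjusted p under 0.05, against 1740 of 12393 genes. Bhlhe40, a clock-linked transcription factor gene of that list, was the only one called between KO_RA and WT_RA, at 0.57 ± 0.12 (limma adjusted p = 0.0263), a call that did not hold when WT_RA 2, WT_RA 3, KO_RA 2 or KO_RA 3 was absent (highest adjusted p 0.106), nor without both arrays that stood apart (0.52, adjusted p = 0.0901). At 7 or 8 of the 16, group means lay under the lower quartile of the arrays.

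**Figure D5:**
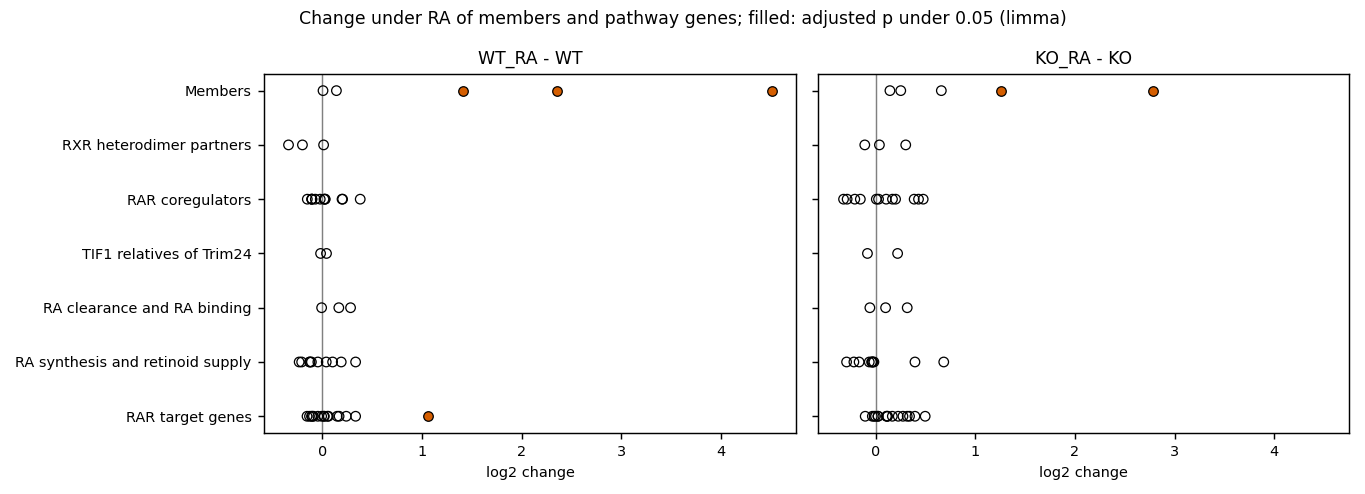
Change under RA (x axis, log2 change) in wild type (left) and KO mice (right) of the 5 genes and of the genes of 6 pathway lists (rows), 1 point per gene, filled where called by limma. The filled points are Cyp26a1, Trim24 and Rarb on the left with Tgm2, and Cyp26a1 and Trim24 on the right, and all other list genes lie between -0.34 and 0.68.

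After the repeats had been seen in Cyp26a1 and Rarb, the other genes with such a repeat were looked up. Of the 31 genes, 6 were measured, Cyp26a1 and Rarb among them. The other 4 were the biliverdin reductase gene Blvrb, the embryonic globin gene Hbb-y, the platelet chemokine gene Ppbp and the B cell factor gene Tnfsf13b. For RA in wild type mice their changes were 0.59, -0.14, 0.14 and -0.04. None was called by limma, and Blvrb alone reached an unadjusted p under 0.05 (adjusted p = 0.222). In the same order their WT means were 10.0, 5.51, 3.96 and 5.95, against WT array medians of 6.27 to 6.32. For RA in KO mice the changes of these 4 ran from -0.13 to 0.12, with 0 called by limma and 0 at an unadjusted p under 0.05. Only 1.27% of all genes were called for RA in wild type and 0.5% in KO mice. An unadjusted p under 0.05 was reached by 1454 and 1740 of 12393 genes. The look-up of 4 genes thus cannot show whether the repeat goes with a response to RA.

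The genes whose levels were most like those of the 3 called members were taken by Pearson's r over the 12 arrays, as a description. The 12 points share the groups, so r mostly reflects the group means, and r of the deviations from the group means is given too. Genes picked for a high r with members that rose under RA are bound to favour such changes themselves. Their changes and calls below therefore describe the picked genes and are no separate result. For Cyp26a1 the 5 highest were Gpx3, a secreted glutathione peroxidase (r = 0.947), Dock1, an activator of Rac (0.924), Timp3, a metalloproteinase inhibitor (0.924), Mylk, the myosin light chain kinase (0.918), and Trim24 (0.916). Their r of deviations was 0.07, 0.38, -0.27, 0.32 and 0.14, so within groups the likeness was weak. Gpx3 had changes of 0.96 under RA in wild type mice (adjusted p = 0.00261) and 0.64 in KO mice (adjusted p = 0.0419), of which the KO call did not hold in 9 of the 12 fits with 1 array fewer. Without both arrays that stood apart these were 0.93 (adjusted p = 0.0102) and 0.56 (adjusted p = 0.0836). Timp3 rose by 0.98 (adjusted p = 0.000419) and 0.82 (adjusted p = 0.00547), and neither call was lost in such a fit or without both arrays (0.97, adjusted p = 0.0038, and 0.84, adjusted p = 0.00852).

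For Rarb the list was Timp3 (r = 0.926), Cd93, a surface receptor of endothelial and myeloid cells (0.907), Lcn2, an acute phase lipocalin (0.897), 2510009E07Rik (0.897) and Cyp26a1 (0.873), with r of deviations of 0.51, 0.46, 0.27, 0.54 and 0.17. Lcn2 had changes of 3.67 under RA in wild type mice (adjusted p = 0.00445) and 2.62 in KO mice (adjusted p = 0.0419), and the KO call did not hold in 8 of the 12 fits with 1 array fewer. Without both arrays that stood apart they were 3.44 (adjusted p = 0.0191) and 2.33 (adjusted p = 0.0821). For Trim24 they were Tspan4, a tetraspanin (r = 0.960), Glce, an epimerase of heparan sulfate synthesis (0.957), Ttpa, the α-tocopherol transfer protein (0.948), Kng1, a kininogen (0.945), and Lpp, a LIM domain protein (0.942), with r of deviations of 0.77, 0.70, 0.28, 0.76 and 0.73. Here the likeness was also present within groups for all but Ttpa, although picking by r over all arrays favours this too. Tspan4 rose by 1.19 under RA in wild type mice (adjusted p = 0.000297) and was lower in KO_RA than in WT_RA by a log2 change of -0.97 (adjusted p = 0.000669), with neither call lost in a fit that left out 1 array or both that stood apart (1.18, adjusted p = 0.00314, and -0.95, adjusted p = 0.00405). In KO mice its change under RA was 0.30 (adjusted p = 0.244). Between the members themselves, r was 0.873 for Cyp26a1 with Rarb, 0.916 for Cyp26a1 with Trim24 and 0.681 for Rarb with Trim24, and r of deviations was 0.17, 0.14 and -0.19.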

How the data were processed

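Liver RNA of 4 groups of 3 mice was hybridized, and the sample titles gave the group, the number and the word biological for each replicate. The authors deposited log2 values, 1 for every probe set on every array. The submitters' processing notes name RMA and Partek 6.11, whereas the study's methods describe MAS5 signals filtered on detection. The values have the form of log2 RMA, and no detection calls were used here. Of 22690 probe sets, 64 were controls, 20380 had 1 symbol, 691 several and 1555 none, and the probe set with the highest mean stood for each of 12393 genes. In R 4.3.3, limma 3.58.1 (lmFit, then contrasts.fit, then eBayes) fitted group means over the 12 arrays, with 8 residual degrees of freedom and two-sided tests, with Benjamini-Hochberg adjustment over all genes in each of 5 contrasts. The fit was tested on simulated data. For arrays, their number limits the precision. The tests set each change against a spread between mice that is estimated over all 4 groups and moderated over all genes. The adjusted p-values also depend on the other genes tested. Promoter letters came from RefSeq tables of GRCm38.p6.

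The members, the gene lists and the tests were chosen with earlier results of these data known. The genes named are the members, Rxra, up to 4 called genes of each pathway list per contrast, and the 5 genes most correlated with Cyp26a1, Rarb and Trim24. Other genes named, Lrat and Fabp5 among them, and the look-up of genes with the repeat were chosen after their values were seen. Alternatives were a replicate block, a further quantile normalization, leaving out dim genes, fitting only the groups compared, a trended robust prior, leaving out 1 array or both that stood apart, testing all probe sets, and averaging or exchanging probe sets. Correlations between same-numbered mice did not show that the replicate numbers paired the mice, but cannot exclude it. Besides Kupffer cells, markers of 6 other cell types were read. For RA in wild type mice 0 of 10 hepatocyte, 0 of 10 stellate cell, 0 of 10 endothelial, 0 of 9 neutrophil, 0 of 5 cholangiocyte and 0 of 9 lymphocyte markers were called by limma. In that order 0, 4, 0, 2, 1 and 1 reached an unadjusted p under 0.05, against 1454 of 12393 genes. In the other comparisons the called markers of these 6 types were Tat (0.92, higher) and Tek (-0.99, lower) for RA in KO mice and Fabp1 (-1.56, lower) between KO_RA and WT_RA. Between KO and WT 0 were called by limma, with 1, 0, 5, 1, 0 and 3 at an unadjusted p under 0.05, against 2017 of 12393 genes.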

Additional observations from a re-analysis of the deposited data

How the results depend on the processing

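Of the 25 changes (5 genes in 5 comparisons), no called one changed sign under any alternative. For Trim24 under RA in KO mice the call was lost with only the groups compared in the fit (1.26, adjusted p = 0.104), without both arrays that stood apart (1.27, adjusted p = 0.054), with the mean of its probe sets (0.80, adjusted p = 0.0659) and on the further probe set (0.33, adjusted p = 0.384), and leaving out 1 array gave 1.03 to 1.40. On the further probe set the Trim24 calls for RA in wild type mice (0.70, adjusted p = 0.085) and for KO_RA against WT_RA (-0.42, adjusted p = 0.21) were lost too. Rarb for KO against WT was called without KO_RA 2 and ranged from 0.58 to 0.83 with 1 array left out. The Cyp26a1 difference between the RA effects was called with a trended robust prior (-1.73, adjusted p = 0.0399) and with means of probe sets (-1.73, adjusted p = 0.0417), and ranged from -1.92 to -1.48 with 1 array left out. Its adjusted p ran from 0.0168 to 0.118 over the alternatives.

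The number of the 5 genes called for RA in KO mice fell from 2 to 1 with only the groups compared, without both arrays that stood apart and with means of probe sets, and was 1 to 2 with 1 array left out. For the difference it was 1 with the trended robust prior and with means of probe sets and 0 to 1 with 1 array left out, as it was for KO against WT. Over all genes, calls for RA in wild type mice were 158, but 103 with only the groups compared, 95 without both arrays and 47 to 212 with 1 array left out. Those for KO against WT were 163, but 98 with the replicate block, 70 with only the groups compared, 266 without both arrays and 51 to 217 with 1 left out. For RA in KO mice they were 62, but 107 after a further quantile normalization, 21 with only the groups compared, 110 without both arrays and 6 to 77 with 1 left out. Between KO_RA and WT_RA they were 490, but 312 without both arrays and 170 to 599 with 1 left out. For the difference they were 1, but 2 with the replicate block, 0 without dim genes, 5 with the trended robust prior, 12 without both arrays, 5 with all probe sets tested, 6 with means of probe sets and 1 to 14 with 1 left out. The cause was not tested.

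The 18 correlations between same-numbered mice ran from -0.46 to 0.27, with 5 over 0.1. Those between WT and WT_RA were 0.13, 0.08 and 0.15, and every other pair of groups had both signs. Pairing was thus not shown, but deviations from the means of 3 arrays cannot exclude it. With the replicate block the change of Cyp26a1 under RA in wild type mice was 4.51 (adjusted p = 3.46e-06), and no call of the 5 genes changed. Leaving out dim genes kept 7129 genes and removed Rara and Rarb, for which it gave no value. With only the groups compared, the difference between the RA effects uses all groups and gave no separate value.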
